A study of Mus musculus with 10 samples.

Results

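Plekhd1, H2-Q2 and Fyb2 had far higher signals in livers carrying nuclear SREBP-1a than in livers carrying nuclear SREBP-2, wild-type livers or livers without SCAP. These 3 genes were picked by that very contrast, the difference of TgSREBP-1a from SREBP wild type and from TgSREBP-2, so their transgenic values are a description and carry no test. With them were taken Plekhd1os, the gene next to Plekhd1 on the opposite strand, and H2-Aa, a class II gene of the histocompatibility complex to which H2-Q2 also belongs. All probe sets annotated to the 5 genes were followed, which gave 6 of the 11868 probe sets tested and 5 of the 5928 genes measured. H2-Aa has 2 probe sets and each of the others has 1.

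The livers came from 5 groups of male mice, measured on Affymetrix oligonucleotide arrays. TgSREBP-1a and TgSREBP-2 mice overexpress the transcriptionally active nuclear form of human SREBP-1a or SREBP-2. Aged 12 to 16 weeks, both transgenic lines and their wild-type littermates (the SREBP wild type group) shared a diet high in protein and low in carbohydrate, fed over 2 weeks because it drives the transgenes. Scap-/- mice lost SCAP in the liver through MX1-Cre, a recombinase switched on by interferon and therefore not limited to hepatocytes. At 10 to 12 weeks of age, Scap-/- and Scap wild type mice ate Teklad chow and had 4 intraperitoneal injections of polyinosinic-polycytidylic acid (poly(I:C)), an inducer of interferon, with 14 days between the last of these and liver removal. Diet, age and injections all differ between the Scap and the SREBP groups and cannot be told apart there. Every group was a single pool of RNA from 5 mice put on 2 arrays, so each p-value below measures the spread between hybridisations and compares pools, not animals.

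SREBPs are membrane-bound transcription factors that SCAP escorts to the Golgi, where their nuclear part is cut free to switch on lipid genes. SREBP-1a activates both cholesterol and fatty acid synthesis, while SREBP-2 acts mainly on cholesterol synthesis. The 5 genes described here are not textbook enzymes of either pathway. Plekhd1 encodes a protein with a pleckstrin homology domain, a fold that often binds membrane phosphoinositides, and a coiled coil. Plekhd1os is a long non-coding RNA. H2-Q2 encodes a class I histocompatibility heavy chain of the Q region, a set of closely related genes beside the classical class I genes. H2-Aa encodes the alpha chain of a class II molecule, which antigen-presenting cells use to show peptides to helper T cells. Fyb2 is a relative of Fyb, an adaptor that binds the kinase Fyn in T cells.

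The duplicate arrays of a group correlated at 0.992 to 0.995 across probe sets, the array medians lay between 4.694 and 4.766 on the log2 scale, and log2 differences had a median standard error of 0.114. The number of arrays limits the precision of each pool's values, and with a single pool per group the spread between animals was not measured. Of the 8 hepatocyte markers listed, only Serpina1a was measured, at a low signal of 3.22 to 3.71 on all arrays, so the array says little about the hepatocyte content of the pools. The values carry no detection calls. In bulk RNA, fewer cells of a type and less RNA per cell cannot be told apart.

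The 3 picked genes lie on chromosomes 12, 17 and 4, and the RefSeq windows around their starts are shown because the genes were high in the same pool and SREBPs act at promoters. Each window runs 5′ to 3′ on the strand of its gene from 250 bases before to 50 bases after the annotated start (GRCm38.p6), and capitals mark every match to 4 motifs searched on both strands. The motifs were TCACNCCAC, written here for sterol regulatory elements, CCAAT for the SREBP partner NF-Y, GGGCGG for the partner Sp1, and the E-box CACGTG, which SREBPs can also bind. The windows lie at chr12:80692351-80692650 on the plus strand for Plekhd1, chr17:35342057-35342356 on the plus strand for H2-Q2, chr4:104913311-104913610 on the plus strand for Fyb2, and chr12:80693903-80694202 on the minus strand for Plekhd1os.
Plekhd1: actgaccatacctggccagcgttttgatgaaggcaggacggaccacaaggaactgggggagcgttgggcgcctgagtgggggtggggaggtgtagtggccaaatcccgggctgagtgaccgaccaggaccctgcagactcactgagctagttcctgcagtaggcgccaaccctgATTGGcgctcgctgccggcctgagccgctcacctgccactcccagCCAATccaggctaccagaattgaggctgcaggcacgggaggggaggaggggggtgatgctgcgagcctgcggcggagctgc
H2-Q2: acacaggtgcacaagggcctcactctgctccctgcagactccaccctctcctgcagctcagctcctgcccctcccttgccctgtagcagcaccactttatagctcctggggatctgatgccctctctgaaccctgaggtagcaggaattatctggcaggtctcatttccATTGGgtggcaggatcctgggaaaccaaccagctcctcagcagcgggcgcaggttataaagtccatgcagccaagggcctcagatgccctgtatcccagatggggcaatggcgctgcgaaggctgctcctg
Fyb2: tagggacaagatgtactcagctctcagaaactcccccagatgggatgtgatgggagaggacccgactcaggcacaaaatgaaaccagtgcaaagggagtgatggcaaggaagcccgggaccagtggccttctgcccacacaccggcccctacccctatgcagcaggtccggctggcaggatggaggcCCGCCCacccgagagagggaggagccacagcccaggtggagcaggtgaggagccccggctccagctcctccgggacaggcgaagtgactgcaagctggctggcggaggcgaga
Plekhd1os: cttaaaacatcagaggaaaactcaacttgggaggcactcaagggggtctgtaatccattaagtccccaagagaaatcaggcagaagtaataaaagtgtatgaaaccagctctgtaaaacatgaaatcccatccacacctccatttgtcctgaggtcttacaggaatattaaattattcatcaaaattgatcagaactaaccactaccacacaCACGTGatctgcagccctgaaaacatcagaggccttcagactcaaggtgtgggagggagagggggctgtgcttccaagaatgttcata

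The Plekhd1 window held 2 CCAAT matches, beginning at positions -76 and -31 relative to the start, and the H2-Q2 window held 1, at -81. CCAAT occurs in 37.4% of all 32851 such mouse windows, so these matches are common. The Fyb2 window held no CCAAT but 1 GGGCGG match on the reverse strand at -63, a motif found in 35.7% of windows. None of the 5 genes' windows held TCACNCCAC, which 1.24% of all windows hold. Plekhd1os had the only CACGTG, at -38, against 7.15% of windows, and the H2-Aa window held 1 CCAAT match at -48. No match overlapped another. No searched motif was common to the windows of all 3 picked genes. GC content was 65.0% for Plekhd1, 59.0% for H2-Q2 and 63.7% for Fyb2, against 43.3% for Plekhd1os, 50.7% for H2-Aa and a median of 52.7% over all windows. Fyb2 has further annotated transcripts, and other starts were not searched.

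Plekhd1 gave the largest measured log2 difference of all 11868 probe sets in TgSREBP-1a against SREBP wild type and also against TgSREBP-2. Its probe set 129277_at had levels (log2) of 8.05 and 7.79 on the 2 TgSREBP-1a arrays, 3.45 and 3.67 on the TgSREBP-2 arrays, and 3.27 and 3.49 on the SREBP wild type arrays. On the Scap side it had 3.56 and 3.45 in Scap-/- and 3.45 and 3.44 in Scap wild type. Both TgSREBP-1a arrays were thus far above the other 8, which spanned 3.27 to 3.67. The log2 difference was 4.54 (SE 0.124) from SREBP wild type and 4.36 (SE 0.124) from TgSREBP-2, while TgSREBP-2 differed from SREBP wild type by 0.18 (SE 0.124). No fold is given for Plekhd1, since the signal outside TgSREBP-1a lay between the 17.9th and 27.5th percentile of probe sets on its array and no detection call shows that it was above background. The log2 differences are likewise between measured signals and do not give the size of the change in RNA. In TgSREBP-1a it lay between the 93.9th and 95.7th percentile. Below TgSREBP-1a the order was TgSREBP-2, Scap-/-, Scap wild type and SREBP wild type, with means of 3.56, 3.51, 3.44 and 3.38, and the arrays of each neighbouring pair overlapped.

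**Figure D1:**
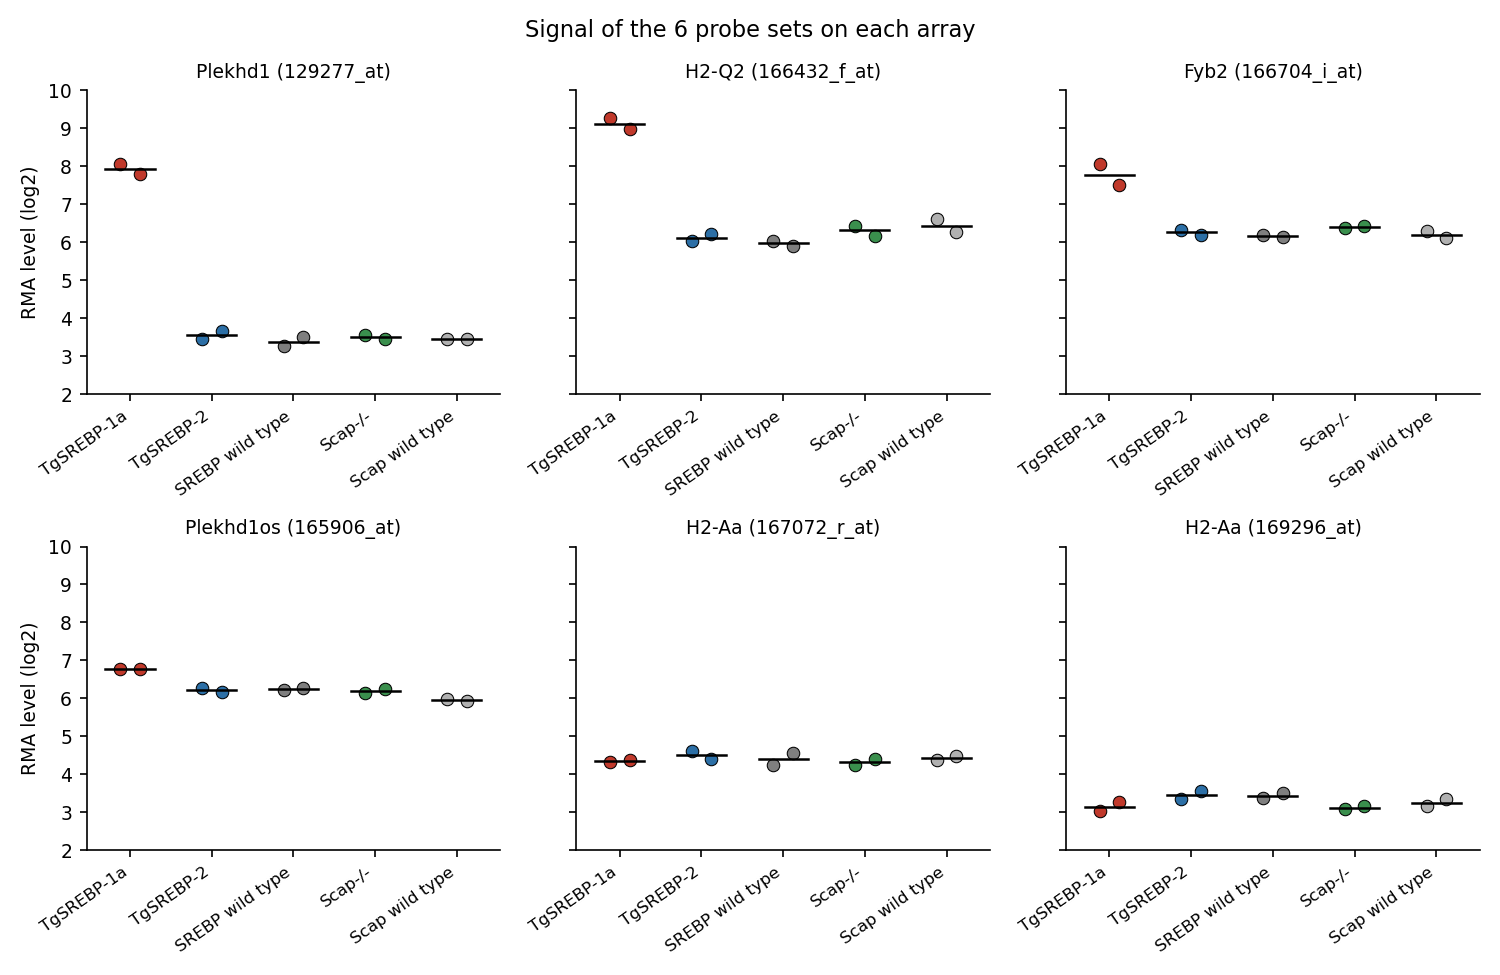
RMA level (log2, vertical axis) of the 6 probe sets on each of the 10 arrays, with the 5 groups along the horizontal axis; points are single arrays and bars the mean of 2 arrays. The TgSREBP-1a points of Plekhd1 (8.05 and 7.79), H2-Q2 (9.27 and 8.98) and Fyb2 (8.06 and 7.51) stand above all other groups, those of Plekhd1os (6.76 on both) stand slightly above, and those of H2-Aa do not.

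H2-Q2 was second in both rankings. Its probe set 166432_f_at had levels of 9.27 and 8.98 in TgSREBP-1a, 6.02 and 6.23 in TgSREBP-2, and 6.03 and 5.91 in SREBP wild type. It had 6.44 and 6.17 in Scap-/- and 6.61 and 6.28 in Scap wild type. Again only the TgSREBP-1a arrays stood apart, with the other 8 between 5.91 and 6.61. H2-Q2 averaged 9.13 ± 0.20 in TgSREBP-1a and 5.97 ± 0.09 in SREBP wild type (SD, n = 2 hybridisations each), a log2 difference of 3.16 (SE 0.148) or 8.94-fold. Against TgSREBP-2 (6.12 ± 0.15) H2-Q2 was 8.02-fold higher (log2 difference 3.0, SE 0.148), and TgSREBP-2 differed from SREBP wild type by 0.16 (SE 0.148). Below TgSREBP-1a the order of mean H2-Q2 levels was Scap wild type (6.44), Scap-/- (6.31), TgSREBP-2 and SREBP wild type, again with overlap between the arrays of each neighbouring pair.

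The suffix _f_at of the H2-Q2 probe set marks probes that match a family of similar sequences, as 1091 (9.19%) of the tested probe sets do. Class I heavy chain genes resemble each other closely, so the signal may hold RNA of other class I genes, and which of them contributed was not tested. The probe sets used for Laptm5, Irf7, Cuzd1, Nsdhl, Pmvk, Sc5d, Gramd3, Ly6g6c and Hspa1a, described below, carry this suffix too, as does 169667_f_at of Anxa5. Their signals may likewise hold RNA of similar sequences. Of the 33 other genes on a list of class I and class I-like molecules, only Fcgrt, the neonatal Fc receptor, was measured. Its level was 7.67 and 7.75 in TgSREBP-1a and 7.83 and 7.72 in SREBP wild type, a log2 difference of -0.06 that was not called. Of 22 listed genes that prepare peptides for class I and class II molecules or control their genes, 5 were measured. None was called in TgSREBP-1a against SREBP wild type. None of the 5 had an unadjusted p under 0.05 there either, beside 1115 of all 11868 probe sets. A call here means a limma p adjusted by Benjamini-Hochberg over all probe sets under 0.05 and a change in level of 1.5-fold or more. In that comparison 0.683% of all probe sets were called higher and 0.354% lower, so 0 of 5 is near the background. Tap2, which carries peptides into the endoplasmic reticulum, differed by 0.07, Psmb8, a proteasome subunit induced by interferon, by -0.11, and Tapbp, which loads peptides onto class I, by -0.14 on a low signal of about 2.62 in TgSREBP-1a and 2.77 in SREBP wild type. Rfx5 differed by 0.08, and Canx by -0.06 on a low signal of 2.95 in TgSREBP-1a and 3.02 in SREBP wild type. The list's median, against -0.03 over all probe sets, was this Canx value of -0.06. With Canx and Tapbp this dim, the median says little about the list.

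Fyb2 had the smallest difference of the picked genes, 12th among all probe sets against SREBP wild type and 4th against TgSREBP-2. Its probe set 166704_i_at had levels of 8.06 and 7.51 in TgSREBP-1a, 6.31 and 6.20 in TgSREBP-2, and 6.20 and 6.13 in SREBP wild type. It had 6.38 and 6.42 in Scap-/- and 6.30 and 6.10 in Scap wild type. The TgSREBP-1a arrays lay above the rest but apart from each other. Fyb2 averaged 7.78 ± 0.39 in TgSREBP-1a and 6.17 ± 0.05 in SREBP wild type (SD, n = 2 hybridisations each), a 3.07-fold difference (log2 difference 1.62, SE 0.153). The suffix _i_at marks a set with fewer probes than the design called for, as in 1307 of the tested probe sets. The log2 difference of Fyb2 from SREBP wild type was 1.34 without TgSREBP-1a replicate 1 and 1.90 without replicate 2. Against TgSREBP-2 Fyb2 was 2.89-fold higher (log2 difference 1.53, SE 0.153), and TgSREBP-2 differed from SREBP wild type by 0.09 (SE 0.153). Among the remaining groups, Scap-/- (6.40) lay above TgSREBP-2 (6.26) without overlap, while the arrays of TgSREBP-2, Scap wild type (6.20) and SREBP wild type overlapped.

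None of the other genes that share a family or a partner with Plekhd1 or Fyb2 was called in any of the 4 comparisons. With at most 0.683% of all probe sets called in 1 direction of a comparison, counts of 0 among so few genes are near the background and set the families apart in no way. Of 29 other genes named Plekh for their pleckstrin homology domain, 13 were measured, with log2 differences in TgSREBP-1a against SREBP wild type of -0.28 (Plekha8) to 0.18 (Plekhf2) and a median of -0.02. At an unadjusted p under 0.05 there were 2 of these 13, beside 1115 of all 11868 probe sets. Of 10 relatives and partners of Fyb2, 4 were measured. Fyb itself differed by 0.06 between TgSREBP-1a and SREBP wild type, the kinase gene Fyn by 0.01, the Fyb-binding adaptor gene Skap1 by 0.00 and the actin regulator gene Enah by -0.02. Fyb and Fyn had low signals (3.20 and 3.54 in TgSREBP-1a, 3.13 and 3.53 in SREBP wild type), and changes at such signals may not have been detectable.

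Plekhd1os and H2-Aa were not picked for their own values and were tested. RefSeq places the start of Plekhd1os 1351 bases inside Plekhd1, from where it runs the opposite way past the Plekhd1 start, so that the genes overlap. Plekhd1os had levels of 6.76 and 6.76 in TgSREBP-1a, 6.26 and 6.17 in TgSREBP-2, and 6.22 and 6.28 in SREBP wild type. It had 6.14 and 6.24 in Scap-/- and 5.99 and 5.93 in Scap wild type. Both TgSREBP-1a arrays were above the other 8, as with its neighbour, but by a small amount. The log2 difference of Plekhd1os was 0.51 from SREBP wild type (SE 0.0923, 95% interval 0.31 to 0.71, limma adjusted p = 0.022) and 0.54 from TgSREBP-2 (SE 0.0923, 95% interval 0.34 to 0.74, adjusted p = 0.0259). At 1.42-fold and 1.46-fold these lie under the 1.5-fold floor, so Plekhd1os was not called. The adjusted p was 0.114 to 0.193 against SREBP wild type when any single TgSREBP-1a or SREBP wild type array was left out, and 0.121 to 0.23 against TgSREBP-2 when any single array of those groups was, so neither p under 0.05 holds without all 4 arrays. TgSREBP-2 differed from SREBP wild type by -0.03 (95% interval -0.24 to 0.17, adjusted p = 0.984). In TgSREBP-1a against TgSREBP-2, 0.27% of all probe sets were called higher and 0.244% lower. In TgSREBP-2 against SREBP wild type the shares were 0.11% and 0.00843%.

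H2-Aa was not called in any comparison. Probe set 167072_r_at had levels of 4.33 and 4.37 in TgSREBP-1a, 4.62 and 4.39 in TgSREBP-2, and 4.23 and 4.55 in SREBP wild type. Those of 169296_at were lower, at 3.03 and 3.26 in TgSREBP-1a, 3.34 and 3.55 in TgSREBP-2, and 3.37 and 3.49 in SREBP wild type. The TgSREBP-1a arrays lay within the range of the SREBP wild type arrays at the first probe set and below it at the second. The log2 difference between TgSREBP-1a and SREBP wild type was -0.04 at 167072_r_at (95% interval -0.32 to 0.24, limma adjusted p = 0.965) and -0.29 at 169296_at (95% interval -0.55 to -0.03, adjusted p = 0.442). Ciita, the master activator of class II genes and the only other gene measured of 12 on the class II list, differed by -0.11 and was not called. All these signals are dim, and H2-Aa was at or under the 47.2nd percentile on each array.

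**Figure D2:**
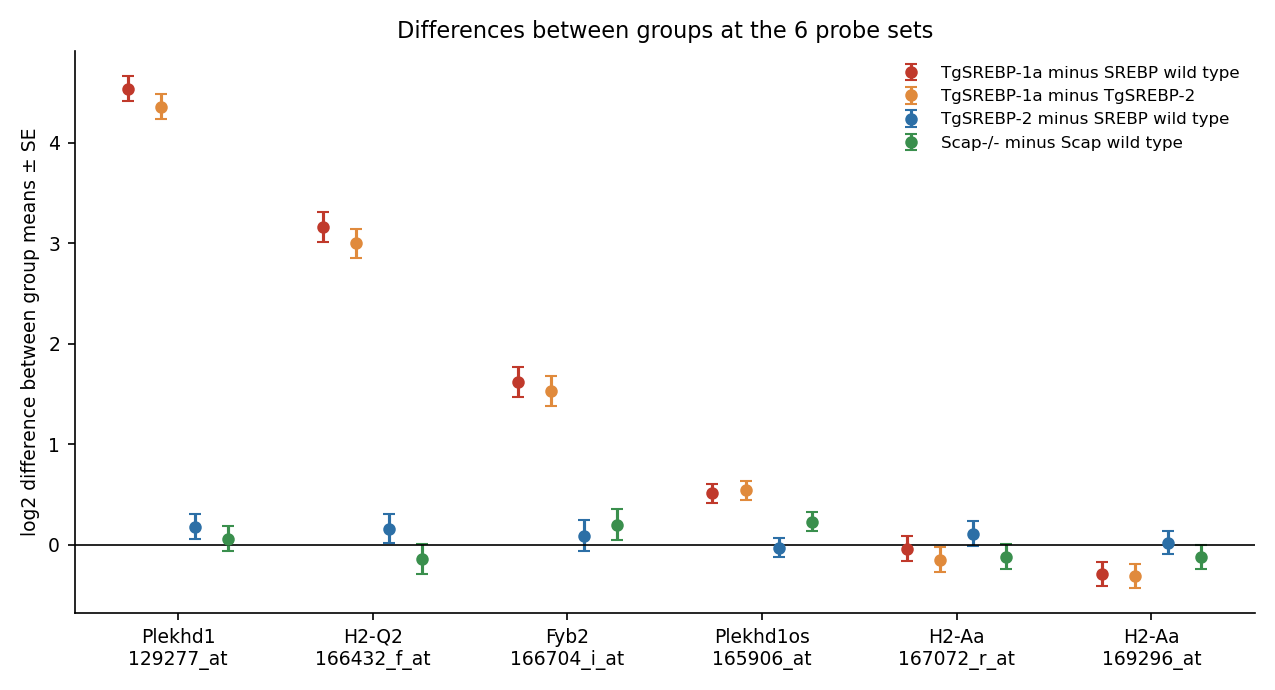
Log2 difference between group means with its standard error from the fit (vertical axis) for each of the 6 probe sets (horizontal axis) in 4 comparisons. Against SREBP wild type, TgSREBP-1a differed by 4.54 at Plekhd1, 3.16 at H2-Q2, 1.62 at Fyb2 and 0.51 at Plekhd1os, while TgSREBP-2 against SREBP wild type and Scap-/- against Scap wild type stayed within 0.23 of 0 at every probe set.

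The Scap comparison took no part in the choice of the genes and was tested for all 6 probe sets. None of the 6 was called, against 0.0421% of all probe sets called higher and 0.0421% called lower in Scap-/-, and each had a limma adjusted p of 0.999. Plekhd1 differed by 0.06 between Scap-/- and Scap wild type (95% interval -0.21 to 0.34), H2-Q2 by -0.14 (-0.46 to 0.19) and Fyb2 by 0.20 (-0.14 to 0.53). Plekhd1os differed by 0.23 (0.03 to 0.43, unadjusted p = 0.0303), its Scap-/- arrays lying above its Scap wild type arrays, and H2-Aa by -0.12 at both probe sets. The H2-Aa levels were 4.23 and 4.39 in Scap-/- and 4.38 and 4.47 in Scap wild type at 167072_r_at, and 3.09 and 3.16 in Scap-/- and 3.16 and 3.34 in Scap wild type at 169296_at. As Plekhd1 and the second H2-Aa probe set were already dim in Scap wild type, a decrease in Scap-/- may not have been detectable at these signals.

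The genes around the 3 picked ones were measured as well. For each picked gene the 5 nearest measured genes on either side in RefSeq gene order were taken, 30 in all and Plekhd1os among them. None was called by limma in any of the 4 comparisons. In TgSREBP-1a against SREBP wild type 2 had an unadjusted p under 0.05, beside 1115 of all 11868 probe sets. Beside the 0.683% and 0.354% of all probe sets called there, and fewer elsewhere, 0 of 30 is near the background. In TgSREBP-1a against SREBP wild type the log2 differences were -0.17 to 0.35 for the 9 others around Plekhd1, -0.10 to 0.15 for the 10 around H2-Q2 and -0.16 to 0.30 for the 10 around Fyb2. At the upper ends were Plek2, a relative of the platelet protein pleckstrin (0.35, limma adjusted p = 0.194), Ly6g6c (0.15) and Prkaa2, which encodes a catalytic subunit of the energy sensor AMPK (0.30). Ccdc177, the nearest measured gene after Plekhd1, differed by -0.15 on a low signal (3.36 in TgSREBP-1a and 3.51 in SREBP wild type). Prrc2a and Pou5f1, the nearest measured on either side of H2-Q2, differed by -0.06 and -0.05. Dcaf5, Cox16, Gm4787, D17H6S56E-5, Hspa1a and Mucl3 were similarly dim, with means of 2.73 to 3.82 in TgSREBP-1a and SREBP wild type. Changes at such signals may not have been detectable. Over the 30 genes the median was -0.01, against -0.03 over all probe sets. Plekhd1os overlaps Plekhd1, but Prrc2a is the 22nd gene from H2-Q2 and Pou5f1 the 13th, so no other gene this close to H2-Q2 was measured.

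**Figure D3:**
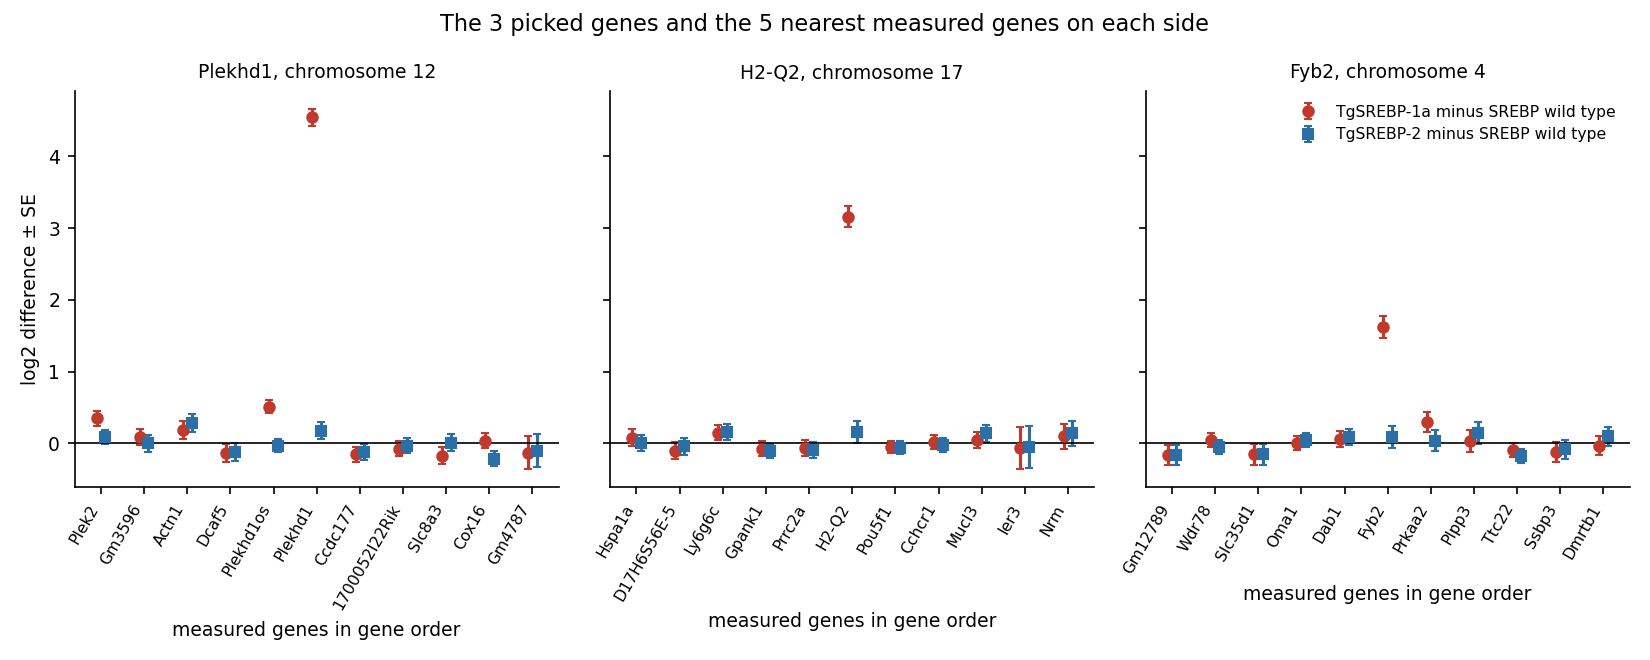
Log2 difference with its standard error (vertical axis) for Plekhd1, H2-Q2 and Fyb2 and the 5 nearest measured genes on each side, in RefSeq gene order along the horizontal axis, which is not to scale in bases. Circles show TgSREBP-1a minus SREBP wild type and squares TgSREBP-2 minus SREBP wild type; the picked genes stand at 4.54, 3.16 and 1.62 in TgSREBP-1a and their neighbours between -0.17 and 0.51.

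Markers of other cells also moved in these pools. Of 11 listed markers of macrophages and Kupffer cells, the resident macrophages of the liver, 3 were measured, and 2 of these rose in TgSREBP-1a against SREBP wild type, beside the background of 0.683%. Vsig4, a complement receptor, had levels of 8.48 and 8.44 in TgSREBP-1a, 8.28 and 7.84 in TgSREBP-2, and 7.59 and 7.04 in SREBP wild type, and Laptm5, a lysosomal protein of blood cells, 9.68 and 9.57 in TgSREBP-1a, 9.11 and 9.13 in TgSREBP-2, and 8.75 and 8.41 in SREBP wild type. C1qc, part of complement C1q, differed by 0.17 in TgSREBP-1a and was not called. The summed signal of the 3 (log2 of the sum on the linear scale) was 10.22 to 10.31 in TgSREBP-1a, 9.78 to 9.90 in TgSREBP-2, 9.09 to 9.46 in SREBP wild type, 9.53 to 9.90 in Scap-/- and 9.60 to 9.77 in Scap wild type. The TgSREBP-2 values lay in between. None of the 3 markers was called in TgSREBP-2 against SREBP wild type, in TgSREBP-1a against TgSREBP-2 or in Scap-/-. At an unadjusted p under 0.05 there were 3, 1 and 0, beside 752, 919 and 451 of all 11868 probe sets. The part of these markers in the H2-Q2 and Fyb2 signals was not tested.

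Of 12 listed T cell markers, the cells in which the Fyb adaptors are best known, only Cd3d, part of the T cell receptor complex, was measured. Its level was low, at 3.68 and 3.93 in TgSREBP-1a, 4.20 and 4.28 in TgSREBP-2, and 4.11 and 3.89 in SREBP wild type. The log2 difference of Cd3d between TgSREBP-1a and SREBP wild type was -0.20 (limma adjusted p = 0.695). The part of T cells in the Fyb2 signal was not tested. None of the 7 B and plasma cell markers and none of the 6 dendritic cell markers listed was measured.

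Interferon raises class I genes in many cells, and 4 of 30 listed interferon response genes were measured. Lgals3bp was the 1 called in TgSREBP-1a against SREBP wild type, at a log2 difference of 0.85, where 0.683% of all probe sets were called higher, and it differed by 0.74 in TgSREBP-2 without a call. Irf7, a transcription factor of that response, was the 1 called in TgSREBP-2, at 1.13, beside 0.11% of all probe sets, and differed by 0.41 in TgSREBP-1a. The summed signal of the 4 was 9.63 to 9.79 in TgSREBP-1a, 9.86 to 9.90 in TgSREBP-2, 8.87 to 9.24 in SREBP wild type, 10.00 to 10.45 in Scap-/- and 10.25 to 10.41 in Scap wild type. It was higher in both transgenic groups than in SREBP wild type, and highest in the poly(I:C)-injected groups, which also differ in diet and age. Gbp2 (-0.02 in TgSREBP-1a and -0.21 in TgSREBP-2) and Ifih1 (-0.07 and -0.06) did not rise against SREBP wild type. The sum rests mainly on Lgals3bp and Irf7, with means of 8.30 and 7.42 in SREBP wild type. Those of Gbp2 and Ifih1 were 3.94 and 4.75. The part of the interferon response in the H2-Q2 signal was not tested.

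Transcripts of pancreatic acinar cells, which make digestive enzymes, moved the other way. Of 10 listed markers 5 were measured, 3 of which (Cpa1, Gp2 and Cuzd1) fell in TgSREBP-1a against SREBP wild type, beside the 0.354% of all probe sets called lower there. The summed signal of the 5 was 6.37 to 6.54 in TgSREBP-1a, 10.64 to 10.98 in TgSREBP-2, 9.67 to 10.36 in SREBP wild type, 6.44 to 6.59 in Scap-/- and 8.68 to 8.71 in Scap wild type. It was lowest in TgSREBP-1a and Scap-/-, and in SREBP wild type it rests mainly on Cpa1 (mean 9.89). Gp2 and Cuzd1 were called higher in TgSREBP-2 against SREBP wild type, by 1.08 and 1.12, beside 0.11% of all probe sets. In Scap-/- against Scap wild type Cpa1 (-2.86) and Gp2 (-1.32) were called lower, beside 0.0421%. Amy2a5 (-0.10 in TgSREBP-1a) and Cpb1 (-0.21) were not called, on low signals of 2.73 and 3.08 in SREBP wild type. The part of these transcripts in the members' values was not tested.

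Of 32 listed SREBP targets 15 were measured. In TgSREBP-1a against SREBP wild type 4 rose (Nsdhl, Pmvk, Fads2 and Tm7sf2) and none fell, beside the 0.683% and 0.354% of all probe sets called there, and the list's median was 0.18. In TgSREBP-2 against SREBP wild type 3 rose (Nsdhl, Pmvk and Tm7sf2, enzymes of sterol synthesis) and none fell, beside 0.11% and 0.00843%, with a median of 0.19. The same 3 fell in Scap-/- against Scap wild type and none rose, beside 0.0421% in either direction. Fads2 differed by 1.18 in TgSREBP-2 without a call. The targets other than the 4 that rose in TgSREBP-1a were not called, and are given here at the probe set used for counts. In TgSREBP-1a and TgSREBP-2 the highest of these were Cyp51 (0.69 and 1.14), Lss (0.51 and 0.54) and Sc5d (0.41 and 0.50). Lss had a limma adjusted p of 0.0388 in TgSREBP-1a but lay under the 1.5-fold floor. Fdps (-0.55 and -0.16), Acly (-0.07 and -0.25) and Msmo1 (-0.07 and -0.13) were lower in both. The rest lay between -0.09 and 0.19. Acly, Sc5d and Stard4 were dim, with means of 3.34, 3.04 and 3.39 in SREBP wild type, and changes at such signals may not have been detectable. The other probe sets of Fdps (0.07 and 0.04) and Lss (-0.11 and -0.10) differed little. The calls of Pmvk rest on the probe set used for counts (2.93 in TgSREBP-1a, 3.05 in TgSREBP-2 and -1.73 in Scap-/-). Its other probe set differed by 0.03, 0.14 and -0.04 there and was not called. The means of that other Pmvk probe set were 5.77 in SREBP wild type and 5.96 in Scap wild type. The summed signal of the 15 was 13.04 to 13.13 in TgSREBP-1a, 12.67 to 13.09 in TgSREBP-2 and 11.43 to 11.69 in SREBP wild type, and 11.17 to 11.36 in Scap-/- against 11.96 to 12.19 in Scap wild type. Both transgenic groups were set against the same SREBP wild type arrays, so their differences are not independent.

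The pattern of the picked genes was not limited to them. In all, 27 probe sets (0.228%) were called higher in TgSREBP-1a over both SREBP wild type and TgSREBP-2, of which 23 have a single gene name. By the smaller of the 2 differences the picked genes hold the first 3 places, which is how they were picked. Being chosen as higher than in TgSREBP-2 favours low TgSREBP-2 values, so their TgSREBP-2 levels are a description, and 24 of the 27 lay within 0.5 of SREBP wild type there. None was called in Scap-/- against Scap wild type, which is near the background of 0.0421% in either direction. The count was 10 without TgSREBP-1a replicate 1 and 17 without TgSREBP-2 replicate 1, and 44 when the replicate number was a block. After the picked genes came Anxa5, Fads2, Ppp1r3g, Sult1e1, Abca5, Gramd3 and Hephl1, with 136586_at, which has several gene names, among them.

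Fads2, the delta-6 desaturase of polyunsaturated fatty acid synthesis and a known SREBP-1 target, had levels of 11.91 and 11.75 in TgSREBP-1a, 10.62 and 10.11 in TgSREBP-2, and 9.57 and 8.80 in SREBP wild type, so that TgSREBP-2 lay 1.18 above SREBP wild type without a call. Ppp1r3g, a glycogen-targeting subunit of protein phosphatase 1, had 7.09 and 6.66 in TgSREBP-1a, 5.14 and 5.04 in TgSREBP-2, and 5.66 and 5.43 in SREBP wild type. Sult1e1, the estrogen sulfotransferase, had 5.45 and 5.42 in TgSREBP-1a, 3.99 and 4.14 in TgSREBP-2, and 4.06 and 4.35 in SREBP wild type. In both genes the TgSREBP-1a arrays were the highest of the 10, while for Ppp1r3g the SREBP wild type arrays also lay above those of TgSREBP-2. Anxa5, a phospholipid-binding protein, was 1.68 higher in TgSREBP-1a than in SREBP wild type at 169667_f_at, but its other probe sets differed by 0.16 (168693_at) and -0.12 (170501_r_at).

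**Figure D4:**
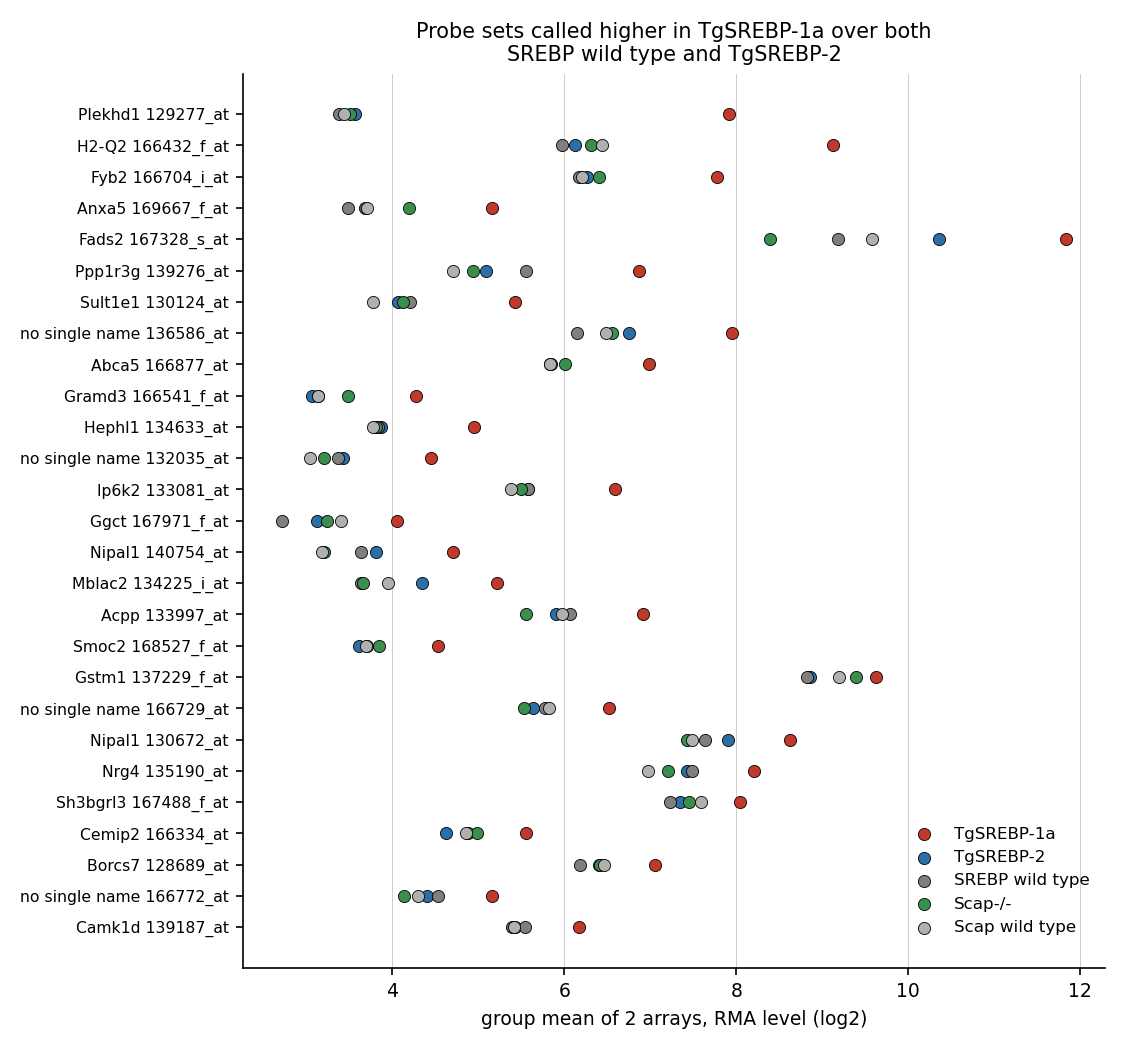
Group means of 2 arrays (RMA level, log2, horizontal axis) of the 27 probe sets called higher in TgSREBP-1a over both SREBP wild type and TgSREBP-2, ordered by the smaller of the 2 differences. Plekhd1 at the top has means of 7.92 in TgSREBP-1a and 3.38 to 3.56 in the other 4 groups; since the probe sets were chosen by these differences, the distance of the TgSREBP-1a points is a description.

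Likeness to each picked gene was measured as Pearson's r over the 10 arrays. The candidates were 87 probe sets with 1 gene name, outside the 5 genes followed here, whose group means span at least 1 on the log2 scale. Likeness describes 5 pools on paired arrays and rests on the TgSREBP-1a arrays standing apart. Hephl1, a relative of the copper oxidase hephaestin, came first for all 3, with r = 0.990 for Plekhd1, 0.978 for H2-Q2 and 0.976 for Fyb2. Hephl1 had levels of 4.98 and 4.91 in TgSREBP-1a, 3.88 and 3.87 in TgSREBP-2, and 3.88 and 3.78 in SREBP wild type, and 3.69 to 3.88 on the Scap arrays. Abca5, a lipid transporter of the ABC family, and Sult1e1 were among the 5 most alike for each of the 3 as well. Abca5 had 7.09 and 6.87 in TgSREBP-1a, 5.66 and 6.0 in TgSREBP-2, and 5.95 and 5.72 in SREBP wild type. Nipal1 (r = 0.922) and Ppp1r3g (r = 0.916) completed the 5 for Plekhd1, and Anxa5 (r = 0.935) and Gramd3 (r = 0.930) those for H2-Q2. Nipal1, a magnesium transporter, was higher in TgSREBP-1a than in SREBP wild type at both of its probe sets, by 0.98 and 1.07.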

How the data were processed

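Each of 5 pools of liver RNA (20 µg) was hybridised to 2 arrays. The deposited values are log2 expression per probe set made by the authors with RMA, per the submitters' processing notes; RMA corrects background, scales the arrays together and combines the probes of a set. The design text names Microarray Suite 5.0 instead, whose values are not analysed here. The log2 scale was read from the range of the values. Gene names came from the platform annotation, which names 1 gene for 7717 probe sets, several for 150 and none for 4001. Of the probe sets with 1 gene, 7677 matched RefSeq by Entrez identifier. A gene with several probe sets is represented in counts by the one with the highest mean.

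All 11868 non-control probe sets (66 controls were left out) and all 10 arrays entered 1 limma 3.58.1 fit (lmFit and eBayes in R 4.3.3) with 5 residual and 6.26 prior degrees of freedom. Tests were two-sided, adjusted by Benjamini-Hochberg over all probe sets in each comparison. The procedure was tested on simulated data. The members and lists were chosen with earlier results of these data known. Named genes were the members, their measured neighbours, list members, the 10 probe sets with the largest smaller difference over SREBP wild type and TgSREBP-2, and the 5 most alike to each picked gene. Alternatives covered scaling, filters, variance, fold floor, arrays used, a replicate block and each array left out.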

Additional observations from a re-analysis of the deposited data

How the results depend on the processing

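The differences of Plekhd1, H2-Q2 and Fyb2 between TgSREBP-1a and SREBP wild type ranged over all alternatives from 4.41 to 4.67, 3.02 to 3.30 and 1.34 to 1.90. H2-Q2, Fyb2 and 1 H2-Aa probe set have no value with plain _at probe sets alone, nor Plekhd1 and H2-Aa with brighter ones alone. Without a fold floor, and with all arrays, Plekhd1os was called in TgSREBP-1a against SREBP wild type (0.51) and TgSREBP-2 (0.54), as the 1 called neighbour in each. Leaving out single arrays turned the sign of small differences: H2-Q2 in Scap-/- (-0.31 to 0.03), Plekhd1os in TgSREBP-2 (-0.08 to 0.01), and H2-Aa in TgSREBP-1a (-0.20 to 0.12 at 167072_r_at) and TgSREBP-2 (-0.05 to 0.27 at 167072_r_at, -0.09 to 0.12 at 169296_at), all against wild type. The counts of called genes of the class I, class II and antigen processing lists were 0 under every alternative.

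Called probe sets numbered 123 in TgSREBP-1a and 14 in TgSREBP-2 against SREBP wild type, 61 between the transgenics and 10 in Scap-/-, and 1115, 752, 919 and 451 had an unadjusted p under 0.05. With plain _at probe sets alone they numbered 67, 4, 36 and 4. With a 2-fold floor they were 59 in TgSREBP-1a against SREBP wild type and 31 between the transgenics, and with the Scap arrays alone 4 in Scap-/-. Leaving out 1 array gave 40 to 134, 7 to 17, 23 to 65 and 3 to 11, the lowest without TgSREBP-1a replicate 1, TgSREBP-2 replicate 1, TgSREBP-1a replicate 1 and Scap wild type replicate 1. The 27 probe sets higher over both became 16 with brighter ones alone, 13 with a 2-fold floor, and 10 to 28 with 1 array left out.

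With the replicate block the counts were 186, 37, 96 and 19, and 44 for those higher over both. The numbers share no stated source, and deviations of same-numbered arrays correlated between groups at -0.175 to 0.332. With the TgSREBP-2 numbers crossed, an alternative chosen after seeing the data, the count in TgSREBP-2 was 23.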
